A study of Mus musculus with 8 samples.

Results

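The genes described here are the nuclear genes of the respiratory chain and ATP synthase in bone marrow-derived macrophages (BMDMs) that had been exposed to tumor-conditioned medium. They were matched by symbol alone, as the rows of the deposited normalized-count table whose symbols start with Nduf, Sdhaf, Uqc, Cox4 to Cox8 or Atp5, or are Sdha, Sdhb, Sdhc or Sdhd. This set of symbols was chosen with earlier results of these data known. The rule matched 100 of 18635 genes, of which 40 belonged to complex I, 4 to complex II, 8 to complex III, 15 to complex IV, 18 to complex V and 15 to the assembly factors (Ndufaf, Sdhaf and Uqcc symbols). Of these, 95 had a mean normalized count of at least 10 over the 8 libraries and were tested. The other 5 were Cox4i2, Cox6b2 and the processed pseudogenes Ndufs6b, Ndufa12-ps and Atp5c1-ps.

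The libraries came from bulk RNA sequencing of total RNA from C57BL/6 mouse BMDMs, macrophages grown from the marrow of young adult mice with L929-conditioned medium as the source of growth factor, kept for 24 h in medium conditioned by AE17 cells, a murine mesothelioma line. The Phgdhfl/fl group (n = 4) carried loxP sites in both alleles of Phgdh, which encodes the first enzyme of serine synthesis from glycolysis, and was Cx3cr1+/+. The Phgdhfl/fl Cx3cr1-Cre group (n = 4) carried the same floxed alleles together with 1 cre allele of Cx3cr1 (Cx3cr1cre/+), so that recombination follows the activity of this myeloid promoter and effects of the cre allele itself cannot be told apart from those of Phgdh loss. All 8 libraries received the conditioned medium, and untreated BMDMs were not analysed here.

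Oxidative phosphorylation passes electrons from NADH (complex I) and succinate (complex II) through ubiquinone, complex III and cytochrome c to oxygen at complex IV, and the proton gradient that complexes I, III and IV build drives ATP synthase, complex V. Complex II is encoded wholly in the nucleus, whereas the other complexes join nuclear subunits to subunits encoded in mitochondrial DNA. In macrophages the balance between this pathway and glycolysis is known to shift with activation. The subunits encoded in mitochondrial DNA were not analysed here.

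The targeted gene followed the labels. Phgdh had 119, 129, 117 and 105 normalized counts in the Phgdhfl/fl libraries and 32.6, 35.3, 14.2 and 26.3 in the Cx3cr1-Cre libraries (log2 fold change -2.15 ± 0.21 SE). Recovered totals were 38219563 to 47027420 reads per library. The summed macrophage markers (Adgre1, Itgam, Csf1r, Cd68, Lyz2, Mertk) ranged from 969690 to 1058274 normalized counts in Phgdhfl/fl and from 960647 to 1035990 in Cx3cr1-Cre, most of it from Lyz2. Of these 6 markers, 2 were called lower in Cx3cr1-Cre without overlap of the groups, Itgam at a log2 fold change of -0.19 (limma adjusted p = 7.0e-06) and Adgre1 at -0.084 (limma adjusted p = 0.00558), and the other 4 did not pass the test. No T cell marker (Cd3e, Cd3d, Cd3g) was found by symbol. Ms4a1, the only one of 3 B cell markers found, stayed between 0 and 4.13 counts. The 4 fibroblast markers found, of 5, summed to at most 49.6 counts. Of the 6 mesothelial or epithelial markers, Upk3b alone was found, at no more than 5.08 counts. Of the 5 neutrophil markers, S100a8 alone was found, at 467 to 575 counts in Phgdhfl/fl and 576 to 631 in Cx3cr1-Cre. Since 3602 of the 18635 genes carried no symbol, markers not found were not assessed. The part of S100a8, Itgam and Adgre1 in the results on respiratory chain genes was not tested. Replicate 1 of Phgdhfl/fl stood nearer to the Cx3cr1-Cre libraries than the other 3 did on the first principal component of all genes (-14.02 against -20.04 to -21.25, with the Cx3cr1-Cre libraries at 16.44 to 20.75).

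In the Cx3cr1-Cre macrophages, respiratory chain transcripts changed by small amounts and mostly downward. Of the 95 tested genes, 47 were lower and 2 were higher at an adjusted p under 0.05 (limma on log2 normalized counts, Benjamini-Hochberg over all 13629 tested genes), and the remaining 46 did not pass the test. The 49.5% of members called lower compares with 20.3% of all tested genes, while 20.8% of all tested genes were called higher. The median level of the members was 29.4 FPKM (reads scaled to exon length and library total), against 4.38 over all tested genes. These shares were not matched for level, which bears on how small a change can pass the test. The median log2 fold change of the members was -0.11, against -0.0018 over all tested genes, and 84 of 95 members had a value below 0. In 32 members (33.7%) every Cx3cr1-Cre library lay below every Phgdhfl/fl library, against 18.2% of all tested genes, and in 2 members (2.11%) every Cx3cr1-Cre library lay above, against 18.4%. Among the members called lower, the mean count was over 10% lower in 26 and over 20% lower in 2 (Cox7a1 and Cox7c). A lower level in bulk RNA may come from less RNA per cell or from fewer cells of a kind, which these data cannot tell apart.

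The share of all recovered reads that fell on the members was 0.622%, 0.644%, 0.644% and 0.648% in the Phgdhfl/fl libraries, and 0.618%, 0.602%, 0.596% and 0.6% in the Cx3cr1-Cre libraries. The 2 groups did not overlap, with replicate 1 of Phgdhfl/fl and replicate 1 of Cx3cr1-Cre nearest to each other. The same was seen in the median over members of the log2 deviation from the Phgdhfl/fl mean, which was -0.048, 0.0095, 0.015 and 0.022 in Phgdhfl/fl and -0.049, -0.10, -0.13 and -0.12 in Cx3cr1-Cre. Thus replicate 1 of either genotype had almost the same median. Without Phgdhfl/fl replicate 1, 54 members were called lower and 1 higher, and without Cx3cr1-Cre replicate 1 the counts were 51 and 1.

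**Figure D1:**
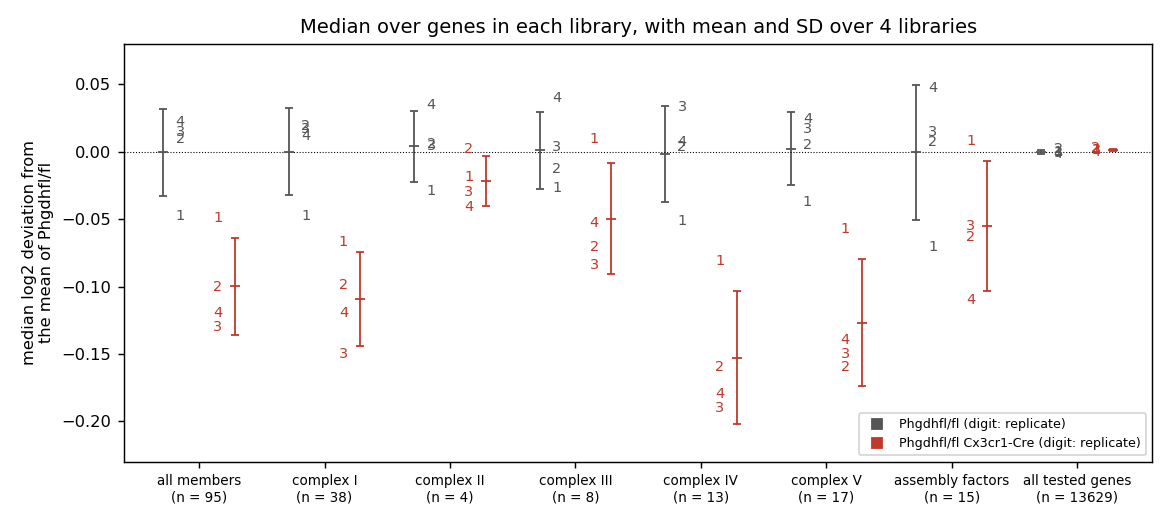
Median over genes of the log2 deviation of each library from the Phgdhfl/fl mean, on the vertical axis, for all members, each complex, the assembly factors and all tested genes. Digits are replicate numbers, grey for Phgdhfl/fl and red for Phgdhfl/fl Cx3cr1-Cre, and bars give the mean and SD over 4 libraries; for complex IV the Cx3cr1-Cre libraries lie between -0.19 and -0.081 and the Phgdhfl/fl libraries between -0.051 and 0.033.

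The counts differed by complex. Complexes I, IV and V held most of the lower genes, with 20 of 38, 9 of 13 and 12 of 17 tested members called lower and medians of -0.12, -0.14 and -0.13. In complex II, 1 of 4 subunits was lower and 1 was higher (median -0.022), and in complex III 2 of 8 were lower (median -0.053). Among the assembly factors 3 of 15 were lower and none was higher (median -0.046). Beside the 20.3% called lower over all tested genes, these shares were 52.6%, 69.2% and 70.6% in complexes I, IV and V. They were 25% in complexes II and III and 20% in the assembly factors, near the background share. In complex II, however, all Cx3cr1-Cre libraries lay below all Phgdhfl/fl libraries in 50% of the 4 genes, against 18.2% of all tested genes. They lay above in 25%, against 18.4%. The assembly factors had a lower median level (5.98 FPKM, against 23.6 to 62.7 for the complexes), so their share is not matched for level. The median deviations of the Cx3cr1-Cre libraries lay below those of all Phgdhfl/fl libraries in complexes I, IV and V, and overlapped with them in complexes II and III and in the assembly factors. These are counts and medians, and no test was made between complexes.

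**Figure D2:**
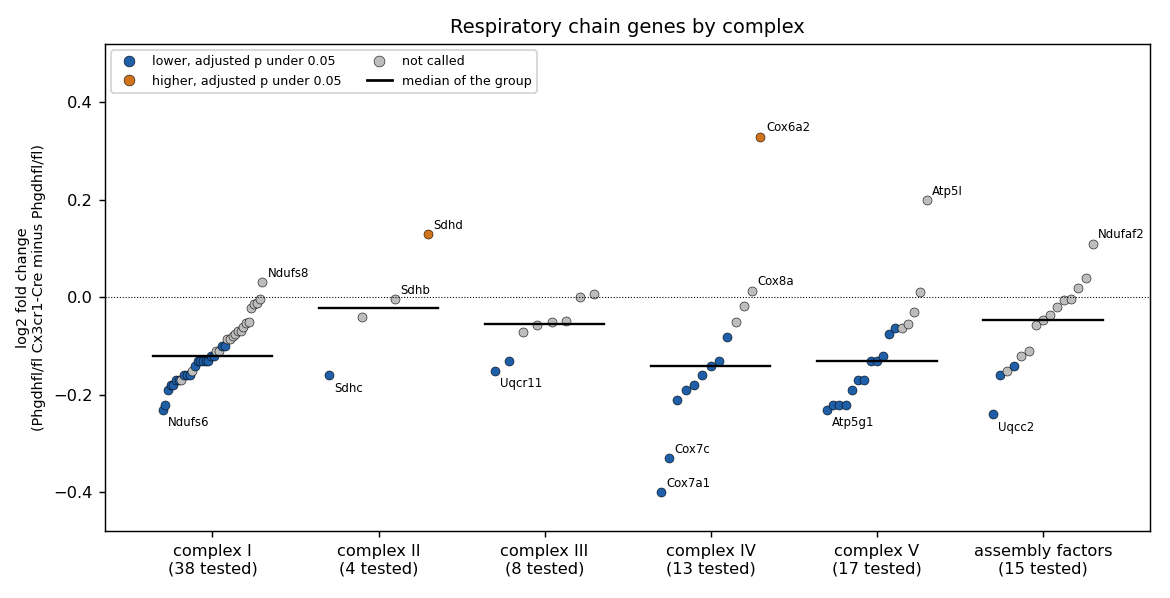
Log2 fold change (Phgdhfl/fl Cx3cr1-Cre minus Phgdhfl/fl, vertical axis) of the 95 tested members, ordered by value within each complex, with the median of each group as a line. Blue points were lower and orange points higher at an adjusted p under 0.05, and grey points did not pass; the range runs from -0.40 (Cox7a1) to 0.33 (Cox6a2).

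Complex I, the NADH dehydrogenase, showed lower transcripts in both its core and its accessory subunits. Among the accessory subunits, which surround the catalytic core and are needed for its assembly and stability, 17 of 31 were lower (54.8%, median -0.13) and the highest value was -0.011. Of the 7 nuclear core subunits, which carry the flavin and iron-sulfur clusters, 3 were lower (42.9%, median -0.085). The share of all tested genes called lower was 20.3%. Ndufs6, an accessory subunit of the NADH-oxidizing arm, had 1315, 1348, 1409 and 1365 normalized counts in Phgdhfl/fl and 1192, 1201, 1109 and 1138 in Cx3cr1-Cre. This was a difference of -14.7% without overlap of the groups (log2 fold change -0.23 ± 0.038 SE, adjusted p = 5.1e-05 by limma). Ndufa8, an accessory subunit of the intermembrane-space side, fell from 2190 ± 63.1 to 1884 ± 63.5 counts (mean ± SD, n = 4; log2 fold change -0.22, limma adjusted p = 1.9e-05). Ndufb6, in the membrane arm, fell from 1353 ± 37.2 to 1189 ± 24.0 (log2 fold change -0.19, limma adjusted p = 2.4e-04). No library of one genotype reached into the range of the other for these 3 genes.

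The core subunits of complex I were divided. Ndufv2, an iron-sulfur subunit of the NADH-binding module, had 2928, 3003, 3071 and 3122 counts in Phgdhfl/fl and 2709, 2849, 2788 and 2717 in Cx3cr1-Cre (log2 fold change -0.13 ± 0.029 SE, limma adjusted p = 9.6e-04), and Ndufs7 was called lower at -0.12, a call lost without Phgdhfl/fl replicate 1 or 4 or Cx3cr1-Cre replicate 4. In contrast, Ndufs1, the largest iron-sulfur subunit, had 3980 ± 56.7 and 3971 ± 48.2 counts, a log2 fold change of -0.0033 ± 0.025 SE. Ndufs8 was the single complex I gene with a value above 0 (0.031, limma adjusted p = 0.609). Ndufb8, an accessory subunit often used to follow complex I, did not pass the test (1632, 1799, 1842 and 1780 counts against 1654, 1771, 1718 and 1536, log2 fold change -0.079, limma adjusted p = 0.155), and its groups overlapped.

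Complex II, succinate dehydrogenase, has 4 subunits and these moved apart. Sdhc and Sdhd are the membrane anchors that hold the heme and, with Sdhb, the ubiquinone site. Sdhc (chr1:171127165-171150603, mm10) had 5756, 5833, 5876 and 6027 counts in Phgdhfl/fl and 5155, 5277, 5329 and 5312 in Cx3cr1-Cre, a difference of -10.3% (log2 fold change -0.16 ± 0.024 SE, limma adjusted p = 2.1e-05). Sdhd (chr9:50596357-50603812, mm10) went the other way, with 4766, 4703, 5012 and 4971 counts in Phgdhfl/fl and 5371, 5284, 5180 and 5501 in Cx3cr1-Cre (9.68%, log2 fold change 0.13 ± 0.027 SE, limma adjusted p = 4.8e-04). Neither pair of groups overlapped. The Sdhd count divided by the Sdhc count was therefore 0.806 to 0.853 in the 4 Phgdhfl/fl libraries and 0.972 to 1.04 in the 4 Cx3cr1-Cre libraries. Sdha, the flavoprotein, had a log2 fold change of -0.040 ± 0.021 SE (limma adjusted p = 0.137), although its 4 Cx3cr1-Cre libraries (9660 to 9718 counts) lay below the 4 Phgdhfl/fl libraries (9826 to 10106). Sdhb, the iron-sulfur subunit, had 4575 ± 198 and 4563 ± 113 counts (log2 fold change -0.0032, limma adjusted p = 0.946). None of the 4 Sdhaf assembly factors of this complex passed the test (log2 fold change -0.12 to 0.039).

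**Figure D3:**
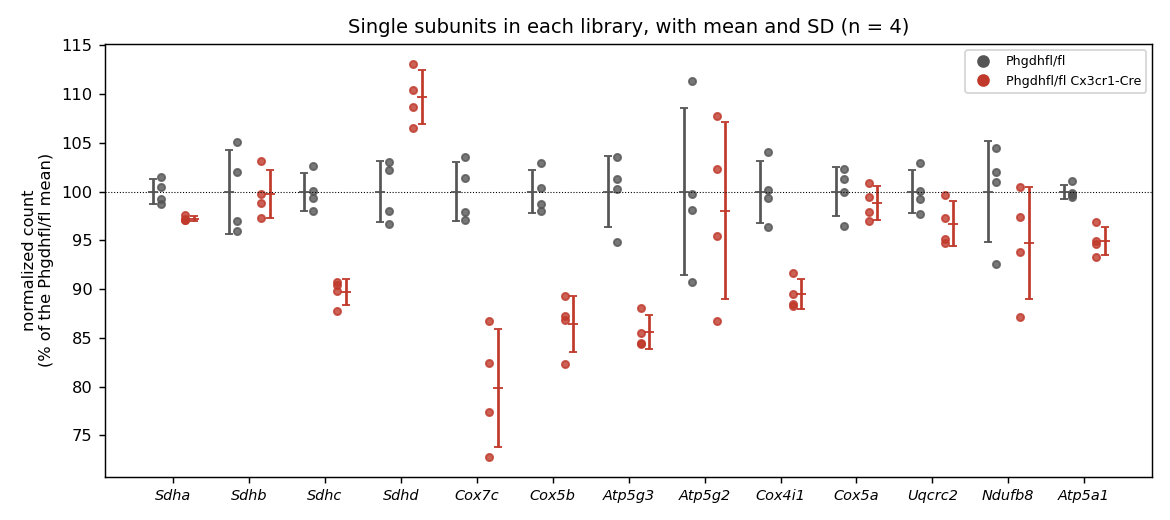
Normalized count of 13 single subunits in each library as a percentage of the gene's Phgdhfl/fl mean (vertical axis), grey for Phgdhfl/fl and red for Phgdhfl/fl Cx3cr1-Cre, with bars for the mean and SD (n = 4). Sdhc lies below and Sdhd above the Phgdhfl/fl libraries in every Cx3cr1-Cre library, while Sdhb, Cox5a, Uqcrc2, Ndufb8 and Atp5g2 overlap between the genotypes.

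Complex III, the cytochrome bc complex, held few changed genes among the 8 that the rule matched. Its cytochrome c1 gene Cyc1, which the rule does not match, was lower without overlap (log2 fold change -0.21, limma adjusted p = 3.5e-04). Uqcrc1, a core protein of the matrix side, had 4924, 5046, 5006 and 4958 counts in Phgdhfl/fl and 4640, 4560, 4416 and 4552 in Cx3cr1-Cre (log2 fold change -0.13 ± 0.025 SE, limma adjusted p = 1.5e-04), with no overlap. Its partner core protein Uqcrc2 had 5535 ± 122 and 5353 ± 126 counts and did not pass the test (log2 fold change -0.048, limma adjusted p = 0.141). Uqcr11, a small accessory subunit, was called lower (log2 fold change -0.15 ± 0.054 SE, limma adjusted p = 0.0351), but its 1609, 1405, 1229 and 1426 counts in Cx3cr1-Cre overlapped the 1553, 1615, 1522 and 1555 in Phgdhfl/fl through replicate 1. That call was lost in 8 of 17 alternative fits, among them those without Phgdhfl/fl replicate 2 or 4 or without Cx3cr1-Cre replicate 2, 3 or 4. Over all 17 fits, 1 to 3 of the 8 genes of complex III were called lower. Uqcrfs1, the Rieske iron-sulfur protein, and Uqcrh, the hinge protein, had log2 fold changes of 0.0071 and 0.0019. The values of the 8 matched genes of complex III lay between -0.15 and 0.0071, and that of Cyc1 lay below them.

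Complex IV, cytochrome c oxidase, had the lowest values of all. Cox7c (chr13:86044816-86046904, mm10), a small subunit without tissue isoforms, had 1340, 1428, 1351 and 1399 counts in Phgdhfl/fl and 1196, 1137, 1068 and 1004 in Cx3cr1-Cre. The mean fell by 20.2% (log2 fold change -0.33 ± 0.046 SE, limma adjusted p = 7.3e-06), and the lowest Phgdhfl/fl library lay 144 counts above the highest Cx3cr1-Cre library. Cox5b, a zinc-binding subunit of the matrix face, fell from 2607 ± 56.7 to 2253 ± 75.7 counts (log2 fold change -0.21, limma adjusted p = 1.2e-05). Cox4i1, the common isoform of subunit 4, fell from 13952 ± 444 to 12487 ± 216 counts (log2 fold change -0.16, limma adjusted p = 1.9e-05). Cox6c also fell (log2 fold change -0.18, limma adjusted p = 6.3e-05). Cox5a, which pairs with Cox4i1 early in assembly, had 5546 ± 141 and 5480 ± 95.8 counts and a log2 fold change of -0.017 ± 0.025 SE (limma adjusted p = 0.630). Cox8a had 4922 ± 80.1 and 4970 ± 168 counts (log2 fold change 0.014, limma adjusted p = 0.725), so that the Cox8a count divided by the Cox7c count was 3.37 to 3.73 in Phgdhfl/fl and 4.22 to 4.74 in Cx3cr1-Cre. Ndufa4, which carries a complex I name but is known as a complex IV subunit, fell from 3183 ± 75.6 to 2850 ± 129 counts (log2 fold change -0.16, limma adjusted p = 3.8e-04). With it counted in complex IV, 10 of 14 genes there and 19 of 37 in complex I were lower.

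Several complex IV subunits exist as isoforms, one widespread and one found mainly in heart and skeletal muscle or in single tissues. Levels of different genes are compared here as FPKM, reads scaled to exon length and to the recovered total of the library. In these macrophages the widespread isoforms prevailed in each pair. Cox4i1 was at 208 ± 6.6 FPKM in Phgdhfl/fl (SD, n = 4) and Cox4i2, the lung and hypoxia isoform, at 0.179 ± 0.113, with 2.1 to 10.1 normalized counts in Phgdhfl/fl. Cox6b1 was at 208 ± 4.03 FPKM and the testis isoform Cox6b2 at 0.174 ± 0.137. Cox6a1 was at 126 ± 3.27 FPKM and the muscle isoform Cox6a2 at 3.02 ± 0.247. Cox7a2 was at 66.6 ± 2.81 FPKM and the muscle isoform Cox7a1 at 3.71 ± 0.624. Cox7a2l, a related gene of the same family, was at 71.0 ± 2.79 FPKM. Cox8b and Ndufa4l2 were not analysed here.

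The isoforms of subunit 6a moved in opposite directions. Cox6a1 had 3691, 3897, 3783 and 3901 counts in Phgdhfl/fl and 3754, 3505, 3313 and 3319 in Cx3cr1-Cre (log2 fold change -0.14 ± 0.035 SE, limma adjusted p = 0.00293), and replicate 1 of Cx3cr1-Cre lay within the Phgdhfl/fl range. Cox6a2 (chr7:128205435-128206387, mm10) had 85.5, 94.8, 80.6 and 95.4 counts in Phgdhfl/fl and 125, 117, 97.6 and 109 in Cx3cr1-Cre (log2 fold change 0.33 ± 0.12 SE, limma adjusted p = 0.0299). The groups did not overlap, but the gap between 95.4 and 97.6 counts was narrow. There were 21.3 to 24.5 Cox6a2 counts per 1000 Cox6a1 counts in Phgdhfl/fl and 29.5 to 33.5 in Cx3cr1-Cre. The Cox6a2 call was lost with DESeq2 and without Phgdhfl/fl replicate 1 or 3 or Cx3cr1-Cre replicate 1, 2 or 4 (log2 fold change 0.27 to 0.39 over the 17 alternative fits). In addition, 70 exon bases of Cox6a2 overlap the integrin gene Itgad. Both isoforms of subunit 7a were called lower. Cox7a2 fell from 2723 ± 119 to 2393 ± 127 counts (log2 fold change -0.19, limma adjusted p = 3.7e-04). Cox7a1 had 80, 68.1, 99.2 and 96.4 counts in Phgdhfl/fl and 72.0, 61.3, 57.9 and 66.1 in Cx3cr1-Cre (log2 fold change -0.40 ± 0.14 SE, limma adjusted p = 0.0301). These groups overlapped, and the call was lost without Phgdhfl/fl replicate 3 or 4 or Cx3cr1-Cre replicate 2 or 3. Cox7a2l had a log2 fold change of -0.050 (limma adjusted p = 0.170). Cox6b1 fell by 0.13 on the log2 scale (limma adjusted p = 9.5e-04).

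**Figure D4:**
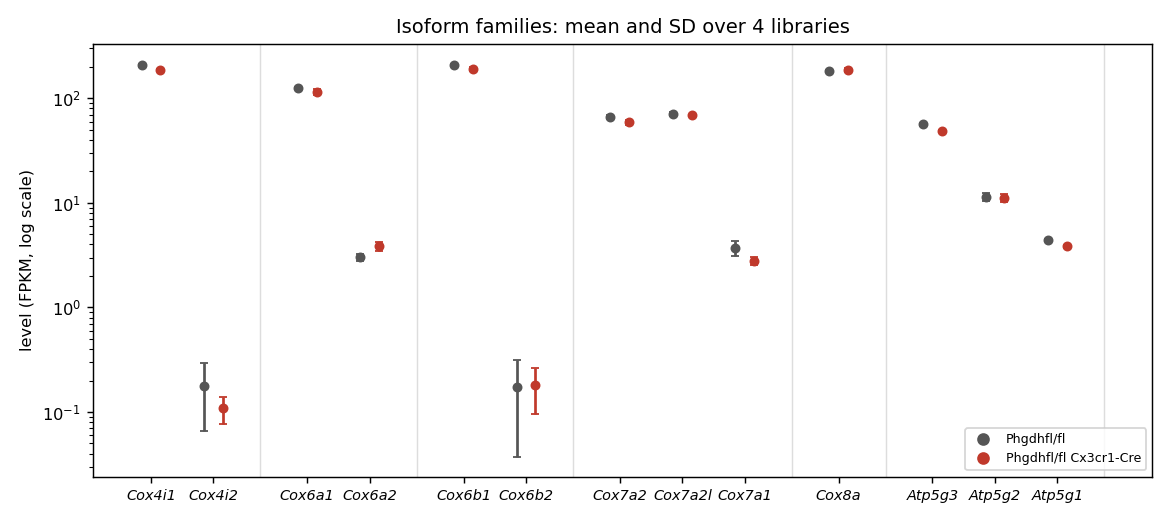
Level in FPKM (log scale, vertical axis) of the isoforms of complex IV subunits 4, 6a, 6b, 7a and 8 and of the c subunit of ATP synthase, as mean and SD over 4 libraries, grey for Phgdhfl/fl and red for Phgdhfl/fl Cx3cr1-Cre. Cox4i1 and Cox6b1 stand at 208 FPKM in Phgdhfl/fl and their partners Cox4i2 and Cox6b2 below 1; bars that are not seen are smaller than the point.

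Complex V, ATP synthase, combines a catalytic head in the matrix, a stalk and a membrane rotor. In the catalytic head and its central shaft, 4 of 5 genes were lower (80%, beside 20.3% of all tested genes). One of them, Atp5d, the delta subunit, was close to the threshold (log2 fold change -0.063, limma adjusted p = 0.0488) and lost its call in 12 of 17 alternative fits. Atp5b, the catalytic beta subunit, had 19418, 20278, 19681 and 20310 counts in Phgdhfl/fl and 18305, 17855, 17977 and 18553 in Cx3cr1-Cre (log2 fold change -0.13 ± 0.022 SE, limma adjusted p = 6.3e-05). Its partner Atp5a1, the alpha subunit, had 18627, 18699, 18674 and 18932 counts against 18143, 17483, 17789 and 17735 (log2 fold change -0.075 ± 0.021 SE, limma adjusted p = 0.00595). Neither overlapped, although the Atp5a1 call was lost after quantile normalization. Atp5e, the epsilon subunit, fell from 3984 ± 133 to 3430 ± 120 counts (log2 fold change -0.22, limma adjusted p = 7.6e-06). Atp5c1, the gamma subunit that turns inside the head, had a log2 fold change of 0.011 (limma adjusted p = 0.751). In the peripheral stalk, Atp5h and Atp5j were lower and Atp5o and Atp5pb did not pass.

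The rotor ring of ATP synthase is built from the c subunit, which 3 genes encode as the same mature protein with different import sequences. Atp5g3 was the most abundant, at 56.2 ± 1.98 FPKM in Phgdhfl/fl, ahead of Atp5g2 at 11.4 ± 0.98 and Atp5g1 at 4.44 ± 0.121. The order of Atp5g2 and Atp5g1 depends on the exon lengths used, 1675 and 4912 bases. By mean normalized count Atp5g1 was ahead (945 against 824 in Phgdhfl/fl). Atp5g1 also has 1 pseudogene with a nearly identical transcript. Atp5g3 had 5038, 5326, 5497 and 5377 counts in Phgdhfl/fl and 4483, 4479, 4675 and 4538 in Cx3cr1-Cre (log2 fold change -0.22 ± 0.028 SE, limma adjusted p = 1.5e-06). Atp5g1 fell from 945 ± 26.0 to 806 ± 26.9 counts (log2 fold change -0.23, limma adjusted p = 1.4e-04). Atp5g2 had 918, 809, 748 and 822 counts against 888, 787, 715 and 843, and its groups overlapped fully (log2 fold change -0.030 ± 0.063 SE, limma adjusted p = 0.745). The Atp5g2 count divided by the Atp5g3 count was 0.156 ± 0.0192 in Phgdhfl/fl and 0.178 ± 0.0192 in Cx3cr1-Cre (SD, n = 4), with overlapping libraries. Of the 5 other small membrane subunits, 4 were lower (80%, beside 20.3% of all tested genes). Atp5j2, the f subunit, fell from 3506 ± 202 to 3009 ± 224 counts (log2 fold change -0.22, limma adjusted p = 3.8e-04), with the Phgdhfl/fl replicate 1 value (3207) inside the Cx3cr1-Cre range. Atp5l, the g subunit, was the exception at 201 ± 16.3 and 231 ± 22.8 counts (log2 fold change 0.20 ± 0.088 SE, limma adjusted p = 0.0752), and 9 other genes have transcripts nearly identical to it, 8 of them pseudogenes, so that its reads may have been divided or discarded.

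The assembly factors build the complexes without remaining in them. Of the 3 Uqcc genes, which help cytochrome b into complex III, 2 were lower (66.7%, beside 20.3% of all tested genes). Uqcc2 had 1266, 1400, 1285 and 1375 counts in Phgdhfl/fl and 1226, 1136, 1069 and 1092 in Cx3cr1-Cre (log2 fold change -0.24 ± 0.045 SE, limma adjusted p = 2.4e-04). Uqcc1, its partner, fell from 1645 ± 71.7 to 1471 ± 42.6 counts (log2 fold change -0.16, limma adjusted p = 0.00140), and Uqcc3 had a log2 fold change of -0.0058 (limma adjusted p = 0.945). Both Uqcc1 and Uqcc2 were without overlap between the genotypes. Of the 8 Ndufaf genes of complex I, Ndufaf4 was lower (837 ± 23.8 against 760 ± 23.5 counts, log2 fold change -0.14, limma adjusted p = 0.0125) and the other 7 did not pass (log2 fold change -0.15 to 0.11). The share called lower among the Ndufaf genes was 12.5%, below that of all tested genes. The median level of the assembly factors was 5.98 FPKM, against 23.6 to 62.7 FPKM for the complexes.

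Genes of the pathway that the symbol rule does not match were read from the same fit. Of 5 tested genes listed as subunits, carriers or related proteins, 3 were lower and none was higher. Cytochrome c (Cycs, 692 against 598 mean counts) and cytochrome c1 of complex III (Cyc1, 2714 against 2351) were both lower, each at a log2 fold change of -0.21, as was Atpif1, the inhibitor of ATP synthase (log2 fold change -0.19, limma adjusted p = 7.0e-05), while Dmac2 (-0.054) and Dmac2l (-0.016) did not pass. Of 38 tested assembly factors of complexes I, III, IV and V with other names, 8 were lower (21.1%) and 3 were higher (7.89%), beside 20.3% and 20.8% over all tested genes. The pooled share of lower genes was thus near that of the background, but it joins unlike lists. All 11 were among the 23 factors of complex IV, of which 34.8% were lower and 13.0% higher. The lower ones included the heme synthesis gene Cox10 (log2 fold change -0.34, limma adjusted p = 1.0e-05) and the copper chaperone Sco2 (-0.47, limma adjusted p = 0.00863), whereas Surf1, Coa4 and Taco1 were higher (0.12, 0.20 and 0.25). None of the 9 complex I, 3 complex III and 3 complex V factors passed the test. Among 16 tested import and outer membrane genes 11 were lower (68.8%) and none was higher (median -0.12), with Tomm40, the import pore, at -0.23 and Vdac1 at -0.11. Of 12 regulators of mitochondrial genes, 4 were lower (33.3%) and 1 was higher (8.33%), beside the same 20.3% and 20.8%. Tfam, Esrra, Pprc1 and Gabpb1 were lower (log2 fold change -0.18, -0.16, -0.15 and -0.12), Gabpb2 was higher (0.15), and Nrf1 and Yy1 did not pass (-0.070 and 0.00061).

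The promoters of respiratory chain genes are known to carry sites for the factors NRF-1, GABP and YY1. RefSeq promoters of mouse build GRCm38.p6, reaching from 250 bases before to 50 bases after the start site, were found for 82 of the 100 members and for 27025 genes in all, and were searched on both strands for the letters GCGCANGCG (NRF-1 core), CCGGAAGT (the ETS motif bound by GABP) and AANATGGC (YY1), none of which contains another. A gene was counted if any of its promoters held the letters. The NRF-1 letters were found for 30.5% of members and 7.03% of all genes. The YY1 letters were found for 25.6% and 6.96%, and the ETS letters for 6.10% and 4.31%. At least 1 of the 3 was present in 56.1% of members and in 16.4% of all genes. Among the 39 members called lower that share was 48.7%, and among the 41 that did not pass it was 63.4%, so the share was the smaller one in the lower members. Complex IV had the smallest share, 27.3% of 11 genes, and complex V the largest of the complexes I, IV and V, 73.3% of 15. The matches are a description of these windows and were not tested. The 250 bases before the start of 5 named members follow, to set the higher Sdhd beside lower members with and without a match; capitals mark a match.
Sdhd (chr9:50603850-50604099, - strand, higher, NRF-1 letters): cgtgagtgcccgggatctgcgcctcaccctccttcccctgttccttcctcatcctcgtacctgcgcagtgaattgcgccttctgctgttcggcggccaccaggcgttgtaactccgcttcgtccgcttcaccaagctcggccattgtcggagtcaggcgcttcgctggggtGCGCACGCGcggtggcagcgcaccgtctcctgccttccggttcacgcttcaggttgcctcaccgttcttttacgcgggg
Ndufs6 (chr13:73328483-73328732, - strand, lower, NRF-1 letters on the reverse strand): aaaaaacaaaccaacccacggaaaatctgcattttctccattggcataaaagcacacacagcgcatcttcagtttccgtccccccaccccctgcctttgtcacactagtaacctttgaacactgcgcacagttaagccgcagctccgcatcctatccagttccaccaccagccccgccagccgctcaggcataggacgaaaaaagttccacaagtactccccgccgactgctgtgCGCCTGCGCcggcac
Uqcc2 (chr17:27133892-27134141, - strand, lower, NRF-1 letters): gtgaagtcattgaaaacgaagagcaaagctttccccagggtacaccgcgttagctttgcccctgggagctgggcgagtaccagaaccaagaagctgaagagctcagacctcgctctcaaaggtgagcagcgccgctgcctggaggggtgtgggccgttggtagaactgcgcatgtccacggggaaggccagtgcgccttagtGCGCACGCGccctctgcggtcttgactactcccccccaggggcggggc
Uqcr11 (chr10:80406822-80407071, - strand, lower, ETS letters): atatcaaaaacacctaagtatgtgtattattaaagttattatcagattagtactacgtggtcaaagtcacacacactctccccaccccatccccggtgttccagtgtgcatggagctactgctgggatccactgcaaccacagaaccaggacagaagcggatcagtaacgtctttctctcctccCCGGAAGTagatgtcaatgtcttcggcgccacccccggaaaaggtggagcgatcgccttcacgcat
Cox7c (chr13:86046796-86047045, - strand, lower, no match): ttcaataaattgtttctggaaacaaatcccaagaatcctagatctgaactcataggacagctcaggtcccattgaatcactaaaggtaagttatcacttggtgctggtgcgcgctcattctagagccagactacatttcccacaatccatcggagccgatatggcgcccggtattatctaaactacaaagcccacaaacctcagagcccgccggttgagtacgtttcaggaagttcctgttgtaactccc
The NRF-1 letters thus stood in the window of the gene that rose, Sdhd, 70 bases before its start, as well as in those of 2 genes that fell, Ndufs6 and Uqcc2, at 6 and 39 bases. Cox7c, which fell most among the abundant genes, held none of the 3 in the 250 bases before its start. The 50 bases after the start, which the shares above include, are not part of these printed windows.

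Respiratory chain genes are short, and fold change varied with length over the whole table. The median exon length was 1718 bases for the 95 tested members and 4077 for all tested genes, while the median GC content was 50% and 49.2%. With all genes split by length into 10 classes of equal size, the median log2 fold change of the shortest class (56 to 1308 bases) was -0.081 and that of the longest (from 9479 bases) was 0.10. The 37 members in the shortest class had a median of -0.13. Over the 10 classes, 70 of 95 members lay below the median of all genes in their own class. After the trend with length and GC content was taken off, the median was -0.069 for the members and -0.022 for all genes. It was -0.080 in complex I, -0.0056 in complex II, -0.019 in complex III, -0.12 in complex IV, -0.092 in complex V and -0.039 in the assembly factors, so the order in which complexes I, IV and V lay below II and III was kept. Sdhd stood at 0.188 and Cox7c at -0.276 after this step. The part that length plays in the lower values was not tested beyond these numbers.

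**Figure D5:**
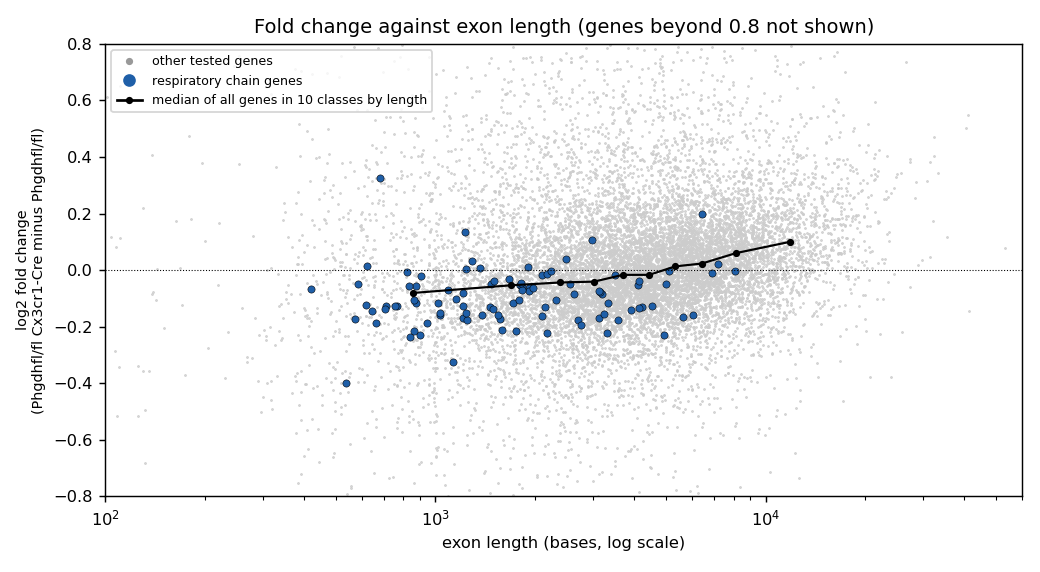
Log2 fold change (Phgdhfl/fl Cx3cr1-Cre minus Phgdhfl/fl, vertical axis) against exon length in bases (log scale, horizontal axis) for the respiratory chain genes in blue and the other tested genes in grey. The black line joins the medians of all genes in 10 classes by length and rises from -0.081 to 0.10; most blue points lie to the left and below the line.

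Reads shared with other genes bear on some members. For 20 of the 100 members another gene has a transcript at least 95% identical over 300 bases or over 50% of its length, and 36 share exon bases with a neighbor. The 77 tested members without such a copy had a median of -0.12 with 41 lower and 2 higher, and the 18 with one had a median of -0.060 with 6 lower. The 59 without exon overlap had a median of -0.13 with 33 lower and 1 higher, and the 36 with overlap had -0.066 with 14 lower and 1 higher. Atp5j shares 397 exon bases with Gabpa on the opposite strand, and 2 gene models named Atp5o overlap, so values of these genes are less certain.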

How the data were processed

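Total RNA of 8 BMDM cultures (4 per genotype, 24 h in AE17-conditioned medium) was sequenced by the study. Per the labels and the study's methods, the authors prepared directional libraries, mapped single-end reads to mm10 with TopHat2, counted genes with HTSeq 0.6 and normalized with DESeq2. The deposited sample columns are a signal unit, read counts divided by 1 size factor per library, without division by gene length. Whole reads could be recovered from 100% of the values above 0 (largest distance from a whole number 0.000451, tolerance 0.01), with totals of 38219563 to 47027420. The authors' own comparison, deposited as log2 fold changes, a Wald statistic (a score) and p-values, was not used.

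Genes averaging 10 or more normalized counts (13629 of 18635) were compared as log2(normalized count + 1) with limma 3.58.1 (empirical Bayes with trend, R 4.3.3), two-sided, with Benjamini-Hochberg adjustment over all tested genes and a threshold of 0.05; fold changes are on that scale. Whether the 4 samples per genotype came from separate animals is given only as biological replicates, so p-values measure the spread between these cultures. Alternatives were edgeR 4.0.16 (quasi-likelihood) and DESeq2 1.42.0 on the recovered reads, another pseudocount (0.1), filter (none, or 100), scaling or variance model, a replicate block, leaving out each library, and removal of the length and GC trend (splines with 4 degrees of freedom). Scripts were tested on simulated data. FPKM used recovered reads and GENCODE M21 exon lengths. Near-identical transcripts were searched with BLAST.

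Named genes were the 5 that the study measured by qPCR (Ndufb8, Sdhb, Uqcrc2, Cox5a, Atp5a1), the 3 lowest called members per complex and of the assembly factors, every member called higher, and the isoform families. That qPCR was done on macrophages sorted from AE17 tumors, not on these cultures. Other genes, such as Ndufs1, Ndufs8, Sdha, Cox6c, Atp5b, Atp5e and Atp5l, and the grouping by role were chosen after values were seen. The members and lists were chosen with earlier results of these data known.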

Additional observations from a re-analysis of the deposited data

Results flagged for a closer look

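Among the 68 sets of 4 libraries examined (named genes by genotype), 4 held a library whose gap to its nearest neighbor took up 0.833 to 0.948 of the range of the set, above Dixon's 95% critical value for 4 samples. Chance flags about 5% of sets. Phgdhfl/fl replicate 1 was the low library for Atp5j2 (3207 normalized counts, the others 3560 to 3631), for Ndufa4 (3071, the others 3210 to 3234) and for Arg1, which is no respiratory chain gene (1481, the others 1642 to 1662). Cx3cr1-Cre replicate 4 was the low library for Cox8a (4719, the others 5043 to 5061).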

How the results depend on the processing

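Of the 49 members called, 36 (35 lower, 1 higher) kept their call under every alternative test, and none changed sign. The count of lower members was 38 to 49 over the alternatives that kept all libraries (47 as reported; lowest with eBayes without trend) and 41 to 54 with 1 library left out. The count of higher members was 2 or, with DESeq2, 1, and 1 to 2 with 1 library left out, since Cox6a2 was near the threshold. The median over all members was -0.107 and stayed between -0.123 and -0.0876 when a library was left out. With the length and GC trend removed it was -0.0687 over all members, -0.0801 in complex I and -0.0917 in complex V, moves larger than the spread between libraries; Cox6b1 went from -0.13 to -0.0611. Over all genes, 5594 were called, and 4930 (no trend) to 5608 (edgeR on the recovered reads) over the alternatives with all libraries. The replicate block gave 48 lower and 2 higher members and 5597 called genes. Labels do not say that equal numbers share an origin, and the block by replicate number was not used. Deviations of same-numbered libraries correlated at 0.063, 0.098, 0.126 and 0.078. Across the genotypes, correlations within replicates 1 and 4 and within replicates 2 and 3 were 0.048 to 0.135. Those between these sets were -0.124 to -0.036. On the second principal component of all genes (13.2%), replicates 1 and 4 of both genotypes lay at 8.3 to 12. Replicates 2 and 3 of both lay at -13.21 to -6.21. A block by these sets was not fitted, and the part of this shared pattern in the results was not tested. Moving Atp5s and Atp5sl was not run, as neither is among the members. With 4 libraries per genotype the smallest called change among members was -0.063 (Atp5d), and that call was lost under 12 of 17 alternatives, the replicate block, edgeR and DESeq2 among them; protein, enzyme activity and subunits encoded in mitochondrial DNA were not analysed here.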
